A study of Mus musculus with 6 samples.

Results

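Goblet cells are the secretory cells of the intestinal lining that build the mucus gel over the epithelium. They package the gel-forming mucin together with lectins, trefoil peptides and other small secreted proteins, fold and cross-link them in the endoplasmic reticulum, and release them into the gut lumen. It is a program of mucus-producing epithelia. Here, 9 goblet cell genes were followed in leukemia cells sorted from bone marrow, namely Zg16, Tff3, Muc2, Agr2, Fcgbp, Spink4, Retnlb, Spdef and Clca3. They were chosen by name, after their levels in these same libraries were known, so that their levels are described here without a test. Of the 9 genes, 8 had a row among the 23284 genes of the expression files, and Muc2, the gel-forming mucin of the intestine, was not analysed here.

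The cells were C1498, a mouse acute myeloid leukemia line made to express EGFP and expanded from a single clone. They had been injected into a vein of C57BL/6 J mice, which were female where the methods do not state otherwise, and GFP+ CD49b+ cells were sorted from the marrow of femur, tibia and pelvis at day 21. Cells came from 3 mice given cytarabine, a nucleoside analog that blocks DNA synthesis, and from 3 control mice, which the sample labels describe as given PBS and elsewhere as untreated. Each mouse gave 1 library, called here cytarabine 1 to 3 and control 1 to 3. Levels are FPKM, the number of fragments scaled by transcript length and by the size of the library, so that genes of different length can be set side by side.
The library totals, inferred from the steps between low FPKM values, lay between 11490000 and 18820000 mapped reads, and 3 reads on a transcript of 2000 bases were worth 0.0886 to 0.145 FPKM. Genes listed for the sorted cells were present in all 6 libraries, with Ptprc (CD45) between 283.5 and 385.5 FPKM and Cd3g between 449.4 and 651.9 FPKM. Cd3e was between 129.6 and 199.3 FPKM and Lck between 75.5 and 105.5 FPKM. Cd3g, Cd3e and Lck are genes of T cells, whereas the paper describes the line as myeloid. The lineage of the line was not examined here. Itga2, which encodes the CD49b antigen used for the sort, was at 8.11, 7.79 and 7.88 FPKM in cytarabine 1 to 3. In control 1 to 3 it was at 10.6, 13.3 and 12.8 FPKM, so it was lower in each treated library than in any control library. Among all genes averaging 1 FPKM or more, groups that did not overlap were found for 23.8%.

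Zg16 encodes a lectin-like protein of goblet granules that binds bacterial cell walls in the mucus, and it lies on chromosome 7 from 127050156 to 127052675 (GRCm38, minus strand). It was at 137.3, 1948 and 2207 FPKM in cytarabine libraries 1 to 3, against 1049, 9.58 and 9.49 FPKM in control libraries 1 to 3. Cytarabine 2, cytarabine 3 and control 1 were thus high, cytarabine 1 was intermediate, and control 2 and control 3 were low, so the groups overlapped. Among the genes of its library Zg16 ranked 33 by FPKM in cytarabine 3 and 6871 in control 3, a difference in level of 232-fold. The low values were not at the limit of detection, since they corresponded to about 61.8 and 57.2 reads in control 2 and control 3. In bulk libraries, fewer cells of a type and less RNA per cell cannot be told apart.

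Tff3, on chromosome 17 from 31125306 to 31129611, encodes the trefoil peptide that goblet cells secrete with mucin and that promotes repair of the epithelium. It was at 56.3, 726.9 and 746.7 FPKM in cytarabine 1 to 3 and at 268.3, 1.61 and 2.08 FPKM in control 1 to 3. The order of the libraries was that of Zg16 except that control 2 and control 3 changed places, on about 5.82 and 7.01 reads.
Clca3 is an older symbol of the gene that RefSeq lists as Clca1 and that is also known as gob-5, on chromosome 3 from 145004537 to 145032776. Its product is a secreted metalloprotease of the mucus. It was at 26.7, 445.1 and 351.4 FPKM in cytarabine 1 to 3 and at 162.3, 1.36 and 1.20 FPKM in control 1 to 3. Here cytarabine 2 lay above cytarabine 3, and the other libraries kept the order of Zg16. The family has several closely related neighbours on chromosome 3, among which the counting could have divided reads, and the row listed as Clca1, an older symbol of Clca3a1, did not exceed 0.393 FPKM in any library.
Spink4, a small secreted protein with a Kazal domain, lies on chromosome 4 from 40920056 to 40931395. It was at 11.9, 196 and 211.5 FPKM in cytarabine 1 to 3 and at 80.5, 1.30 and 0.467 FPKM in control 1 to 3. The 2 lowest values rested on about 3.18 and 1.06 reads.
Fcgbp, on chromosome 7 from 28071236 to 28120864, encodes a very large mucin-like protein that is a main component of colonic mucus. It was at 1.08, 20.9 and 29.4 FPKM in cytarabine 1 to 3 and at 10.1, 0.125 and 0.0448 FPKM in control 1 to 3. The values in control 2 and control 3 rested on about 11.9 and 3.98 reads. Although low per length in every library, Fcgbp followed the order of Zg16 exactly.

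Agr2 is a protein disulfide isomerase of the endoplasmic reticulum that goblet cells need to make mucin, and it lies on chromosome 12 from 35992925 to 36004081. Its level was 19.7, 263.2 and 273.3 FPKM in cytarabine 1 to 3 and 143.5, 3.06 and 2.82 FPKM in control 1 to 3. The order was again that of Zg16, but the range was narrower, 96.9-fold between the highest and the lowest library. Spdef, on chromosome 17 from 27714446 to 27731003, is the Ets transcription factor that drives goblet cell maturation. It was at 0.0941, 1.14 and 2.72 FPKM in cytarabine 1 to 3, at 1.43 and 0.0497 FPKM in control 1 and 2, and listed at 0 in control 3, where 3 reads would have given 0.152 FPKM. Control 1 lay above cytarabine 2 for this gene, unlike for Zg16, Tff3, Clca3, Spink4, Fcgbp and Agr2. Retnlb, on chromosome 16 from 48816856 to 48818892, encodes RELM-beta, which goblet cells secrete in response to bacteria and worms. It was listed at 0 in 5 libraries, where 3 reads would have given 0.321 to 0.525 FPKM, and at 0.287 FPKM in control 1, about 2.02 reads. Of the 8 genes, 6 were above 0 in all libraries, and the same 6 averaged 1 FPKM or more.

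**Figure D1:**
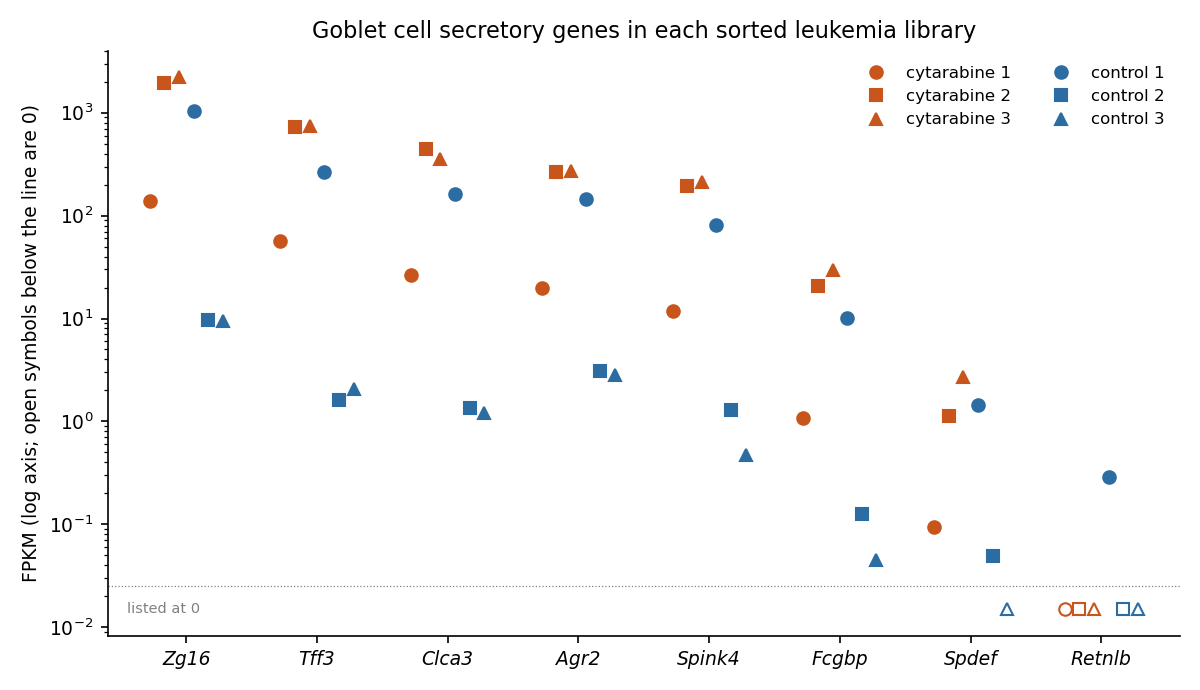
FPKM (log axis) of the 8 goblet cell genes in each library, with orange symbols for cytarabine mice and blue symbols for control mice, and open symbols for genes listed at 0. Zg16 runs from 9.49 FPKM in control 3 to 2207 FPKM in cytarabine 3, and for the 6 genes above 0 in all libraries cytarabine 1 sits between control 1 and the other 2 controls.

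Together the 8 genes held 0.0392, 0.559 and 0.614% of the summed FPKM in cytarabine 1 to 3, and 0.265, 0.00269 and 0.00246% in control 1 to 3. Zg16 alone made up between 54.1 and 61.2% of their sum in every library, although the sum itself ranged over 237-fold. The proportions of the genes to each other therefore varied far less than their levels. The SD over the 6 libraries of the log2 level was 3.67 for Zg16 and between 3.09 and 4.04 for Tff3, Agr2, Fcgbp, Spink4 and Clca3. By contrast, the SD of their log2 ratio to Zg16 was between 0.31 (Clca3) and 0.62 (Agr2).
Clca3 stayed between 12.7 and 22.9% of Zg16 in all libraries. Agr2 was between 12.4 and 14.3% of Zg16 in cytarabine 1, 2 and 3 and control 1, but at 31.9% in control 2 and 29.7% in control 3. Those 2 values rested on about 26.7 and 22.9 reads of Agr2. Tff3 moved the other way, from between 25.6 and 41% of Zg16 in cytarabine 1, 2 and 3 and control 1 to 16.8% in control 2 and 21.9% in control 3. Cytarabine 1, 2 and 3 and control 1 were the 4 libraries with the highest Zg16. There the ratio to Zg16 varied over 1.16-fold for Agr2, 1.31-fold for Spink4, 1.48-fold for Clca3, 1.60-fold for Tff3 and 1.69-fold for Fcgbp. In the same 4 libraries Zg16 itself varied over 16.1-fold. Read numbers were not high in all of them, since Spink4 rested on about 30.7 reads in cytarabine 1. Over all 6 libraries the ratio varied over 2.58-fold for Agr2, 2.76-fold for Spink4, 2.44-fold for Tff3 and 2.82-fold for Fcgbp. Whether read number accounts for the shift of Agr2 in control 2 and control 3 was not tested. These ratios are a description of 6 libraries that share depth and normalization within each library.

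**Figure D2:**
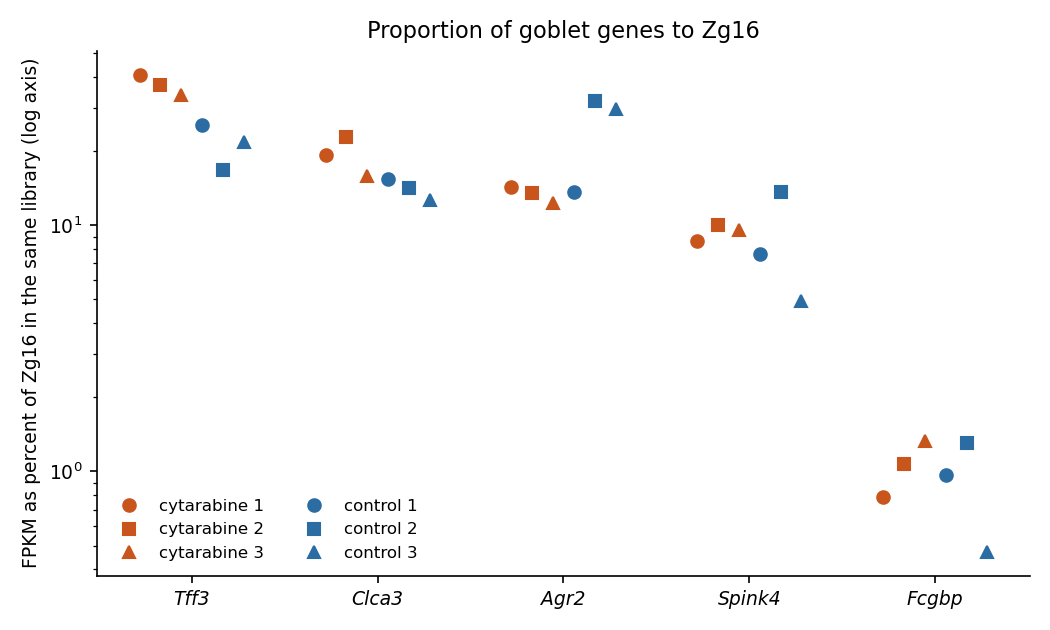
FPKM of 5 goblet cell genes as a percent of Zg16 in the same library (log axis), orange for cytarabine and blue for control mice. Clca3 keeps to a band between 12.7 and 22.9%, whereas Agr2 stands at 31.9 and 29.7% in control 2 and control 3 and between 12.4 and 14.3% in the other 4 libraries.

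The promoters of Agr2, Fcgbp and Spdef are shown because these are the members with an entry in the promoter table, and Agr2 and Fcgbp followed Zg16 through the libraries. The sequences are from RefSeq (GRCm38.p6), 250 bases up to the base before the transcript start used in that table, 5′ to 3′ on the gene's strand. They span chr12:35992675-35992924 (plus strand) for Agr2, chr7:28070986-28071235 (plus strand) for Fcgbp and chr17:27728952-27729201 (minus strand) for Spdef. Capitals mark TATAA, the core of a TATA box, and TTTAT, a core recognised by the intestinal homeobox factors Cdx1 and Cdx2, on either strand.
Agr2: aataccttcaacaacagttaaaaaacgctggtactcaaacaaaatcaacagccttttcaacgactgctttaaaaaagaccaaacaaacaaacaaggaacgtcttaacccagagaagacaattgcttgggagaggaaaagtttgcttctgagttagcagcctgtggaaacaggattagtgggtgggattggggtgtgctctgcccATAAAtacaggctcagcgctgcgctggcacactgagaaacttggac
Fcgbp: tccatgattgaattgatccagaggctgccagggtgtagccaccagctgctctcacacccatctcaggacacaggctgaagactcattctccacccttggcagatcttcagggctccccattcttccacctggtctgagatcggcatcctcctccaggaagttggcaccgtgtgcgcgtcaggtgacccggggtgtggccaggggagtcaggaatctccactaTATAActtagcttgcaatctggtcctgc
Spdef: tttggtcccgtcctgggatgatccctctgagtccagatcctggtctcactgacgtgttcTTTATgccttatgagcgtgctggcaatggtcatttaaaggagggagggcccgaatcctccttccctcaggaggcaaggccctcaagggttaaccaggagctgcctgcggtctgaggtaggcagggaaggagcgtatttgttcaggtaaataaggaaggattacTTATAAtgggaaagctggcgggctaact
TATAA was found in Fcgbp and, as 2 overlapping matches on opposite strands, in Spdef, and TTTAT was found in Agr2 and Spdef. Among 32851 promoters of this length 22.8% held TATAA and 37.3% held TTTAT. The letters ATAAA, the reverse complement of TTTAT, can also form part of a TATA box.

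Genes that were not members were compared with the goblet profile, which is the mean of the centred log2 FPKM of the 6 members above 0 in all libraries. The measure was the SD over the 6 libraries of the difference between a gene and that profile, computed for 11031 genes that reached 0.1 FPKM in all libraries and averaged 1 FPKM or more, with a median of 3.76. The members Zg16, Clca3, Spink4, Tff3 and Agr2, each against the profile of the other 5, had SDs of 0.22, 0.30, 0.38, 0.59 and 0.82. Fcgbp is part of the profile but has no SD, since it was under 0.1 FPKM in control 3. The same limit left out gut genes such as Hnf4a and Cdx1, so the nearest genes are only those above it in every library. The 10 nearest other genes were Tspan1, Oit1, Cldn7, Cldn3, Gpa33, Calml4, Car4, Hoxb13, Krt8 and Klk1, with SDs from 0.14 to 0.27. Several are well known in the gut epithelium: Cldn3 and Cldn7 are tight junction claudins, Gpa33 is a surface antigen of intestinal epithelium, Car4 is a carbonic anhydrase of colonocytes, Krt8 is a keratin of simple epithelia, and Hoxb13 is a homeobox gene of the posterior gut and prostate. Tspan1 was at 13.4, 196.1 and 182.6 FPKM in cytarabine 1 to 3 and at 74.5, 0.821 and 0.588 FPKM in control 1 to 3. Hoxb13 was at 3.92, 59.2 and 55.5 FPKM in cytarabine 1 to 3 and at 17.1, 0.291 and 0.156 FPKM in control 1 to 3. Both showed the same high, intermediate and low libraries as Zg16. Among the 10 nearest genes some rested on few reads in control 2 and control 3. Cldn3 was there at 0.152 and 0.164 FPKM and Calml4 at 0.157 and 0.169 FPKM. In these 2 libraries 3 reads on a transcript of 2000 bases were worth 0.135 and 0.145 FPKM. The small SDs and the order of these genes are therefore approximate.

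Other genes of goblet cells were then taken from lists written by role, with 50 genes of which 48 had a row, 31 averaged 1 FPKM or more, and 6 were listed at 0 in all libraries. Of the 31, 16 were highest in cytarabine 3 and 9 in cytarabine 2, whereas among all 11703 genes averaging 1 FPKM or more 18.3% were highest in cytarabine 3 and 15.4% in cytarabine 2. The lists were chosen with earlier results of these data known. Some of the 31, Atoh1 among them, reached that mean only through cytarabine 2, cytarabine 3 and control 1. The filter thus partly sets the counts of the 31, which are a description without a test.
Among 9 transcription factors, the 4 with the highest mean were Xbp1, Klf4, Gfi1 and Creb3l1. Klf4, which promotes goblet cell differentiation, was at 2.44, 30.4 and 40.7 FPKM in cytarabine 1 to 3 and at 18.6, 2.38 and 0.671 FPKM in control 1 to 3. Xbp1, a factor of the unfolded protein response used by many cell types, stayed between 49.4 and 61.1 FPKM. Atoh1, which sets the secretory fate in the intestine and was picked for naming after its values were seen, was at 0.0404, 4.05 and 3.52 FPKM in cytarabine 1 to 3, at 1.56 and 0.0427 FPKM in control 1 and 2, and listed at 0 in control 3.
Among the mucins, Muc13, a mucin anchored in the membrane of intestinal cells, was at 14.2, 244.8 and 292.2 FPKM in cytarabine 1 to 3 and at 106.9, 0.67 and 1.28 FPKM in control 1 to 3. Muc1 was at most 3.97 FPKM, and Muc4 and Muc20 were under 1 FPKM in all libraries. Muc5ac and Muc5b, the gel-forming mucins of stomach and airway, were listed at 0 throughout.
Of 13 enzymes that build the sugar chains of mucins, 10 averaged 1 FPKM or more. Galnt4, C1galt1, Galnt12 and Galnt7, the 4 with the highest mean, varied over 1.11-fold, 1.44-fold, 1.22-fold and 1.37-fold between the highest and the lowest library, and St6galnac1 was listed at 0 throughout. Fut2, a fucosyltransferase named after its values were seen, was at 0.372, 5.45 and 7.99 FPKM in cytarabine libraries 1 to 3, against 3.05, 0.0302 and 0.0325 FPKM in control libraries 1 to 3. B4galnt2, also named after its values were seen, was at 1.24, 11.5 and 14.3 FPKM in cytarabine libraries 1 to 3, against 5.59, 0.332 and 0.758 FPKM in control libraries 1 to 3. Fut2 and B4galnt2 thus shared the high, intermediate and low libraries of Zg16. In the list of secretory pathway and secreted proteins, Sytl2 and Txndc5 varied over 1.21-fold and 1.05-fold. Wfdc2, a secreted protein of epithelia, was at 6.39, 96.2 and 87.2 FPKM in cytarabine 1 to 3 and at 38.5, 1.93 and 0.173 FPKM in control 1 to 3. Rep15, a Rab15 effector, was at 1.77, 30.4 and 27.2 FPKM in cytarabine 1 to 3 and at 17.3, 0.208 and 0.335 FPKM in control 1 to 3. Wfdc2 and Rep15 were thus high in cytarabine 2, cytarabine 3 and control 1, as Zg16 was. Ern2, the IRE1 homolog of mucus-producing epithelia, which was also named after its values were seen, was at 0.165, 2.40 and 2.26 FPKM in cytarabine libraries 1 to 3, at 1.06 FPKM in control 1, and listed at 0 in control 2 and 3. Tff1 and Tff2, the trefoil peptides of the stomach, and Ang4 were listed at 0 in all libraries.

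Markers of other cells were summed per library to see which moved with the goblet genes. The 11 pan-epithelial genes summed to 115.3, 1627 and 1746 FPKM in cytarabine 1 to 3 and to 759.8, 15.8 and 6.04 FPKM in control 1 to 3, the order of Zg16. Their sum was between 63.6 and 84% of Zg16 in all libraries except control 2, where it was 164.6%. The 13 genes of absorptive colonocytes with a row summed to 120, 1391 and 1439 FPKM in cytarabine 1 to 3 and to 605, 11.3 and 13 FPKM in control 1 to 3. Enteroendocrine genes, led by Pyy and Insl5, followed too, with a sum of 7.61, 160.1 and 212 FPKM in cytarabine 1 to 3 and 71.4, 0.312 and 0.215 FPKM in control 1 to 3.
Markers of other parts of the digestive tract and of the airway were then examined. Of 9 genes of small intestine enterocytes, 6 were under 1 FPKM in all libraries, with Apoa4 and Apoc3 listed at 0, while Rbp2, Fabp6 and Fabp2 reached 10.6, 5.29 and 4.82 FPKM. The Paneth cell defensins Defa3, Defa5, Defa17 and Defa24 were listed at 0 in all libraries. Lyz1, a lysozyme of Paneth cells whose sequence is close to that of the myeloid Lyz2, was at 4.82, 17.3 and 12.8 FPKM in cytarabine libraries 1 to 3, against 13.7, 22.3 and 9.49 FPKM in control libraries 1 to 3, and so did not have the order of Zg16. All 7 stomach genes and all 6 airway genes were under 1 FPKM in all libraries, and Gkn1, Gkn2, Pgc, Atp4b, Gif, Scgb3a1, Bpifa1 and Scgb3a2 were listed at 0. Among 5 genes of tuft cells, Gng13 had the highest value, 1.11 FPKM in cytarabine 1, and Il25 was listed at 0. Among genes of intestinal stem cells and gut identity, Hnf4a, a transcription factor of the gut epithelium, was at 1.69, 26.7 and 31.8 FPKM in cytarabine 1 to 3 and at 12.3, 0.116 and 0.0625 FPKM in control 1 to 3. Cdx1 was at 1.13, 14 and 20.1 FPKM in cytarabine 1 to 3, at 7.12 and 0.0521 FPKM in control 1 and 2, and listed at 0 in control 3. Not all genes of this list followed. Olfm4 went the other way, with 0.052 FPKM in cytarabine 3 and 1.81 FPKM in control 3, and Lgr5 was at most 0.351 FPKM.
Smooth muscle genes summed to 123.5, 1021 and 1184 FPKM in cytarabine 1 to 3 and to 963.7, 168.4 and 24.9 FPKM in control 1 to 3. Relative to cytarabine 3, control 1 held 81.4% of the smooth muscle sum but 44.9% of the goblet sum. Heart genes did not share the order: all 8 were highest in control 1, and their sum was 3026 FPKM there, against 8 and 22.6 FPKM in cytarabine 1 and 2, 791.2 FPKM in cytarabine 3, and 625.9 and 60.6 FPKM in control 2 and 3. The 8 genes of the sorted leukemia cells summed to 1382, 1132 and 1138 FPKM in cytarabine 1 to 3 and to 1284, 1444 and 1467 FPKM in control 1 to 3. That sum varied over 1.30-fold, lowest in cytarabine 2 and 3 and highest in control 2 and 3, nearly the reverse of the goblet order. It was led by Cd3g and Ptprc, and not every gene of the list shared its order. Of the 8 genes, 4 were highest in control 2, 2 in control 3, 1 in control 1 and 1 in cytarabine 1. Genes of other marrow cells, led by S100a8 and S100a9 of neutrophils, summed to 1463, 308.6 and 284.7 FPKM in cytarabine libraries 1 to 3, against 1299, 1915 and 1682 FPKM in control libraries 1 to 3, so that cytarabine 2 and 3 were lowest. The part of these other cells in the goblet values was not tested.

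**Figure D3:**
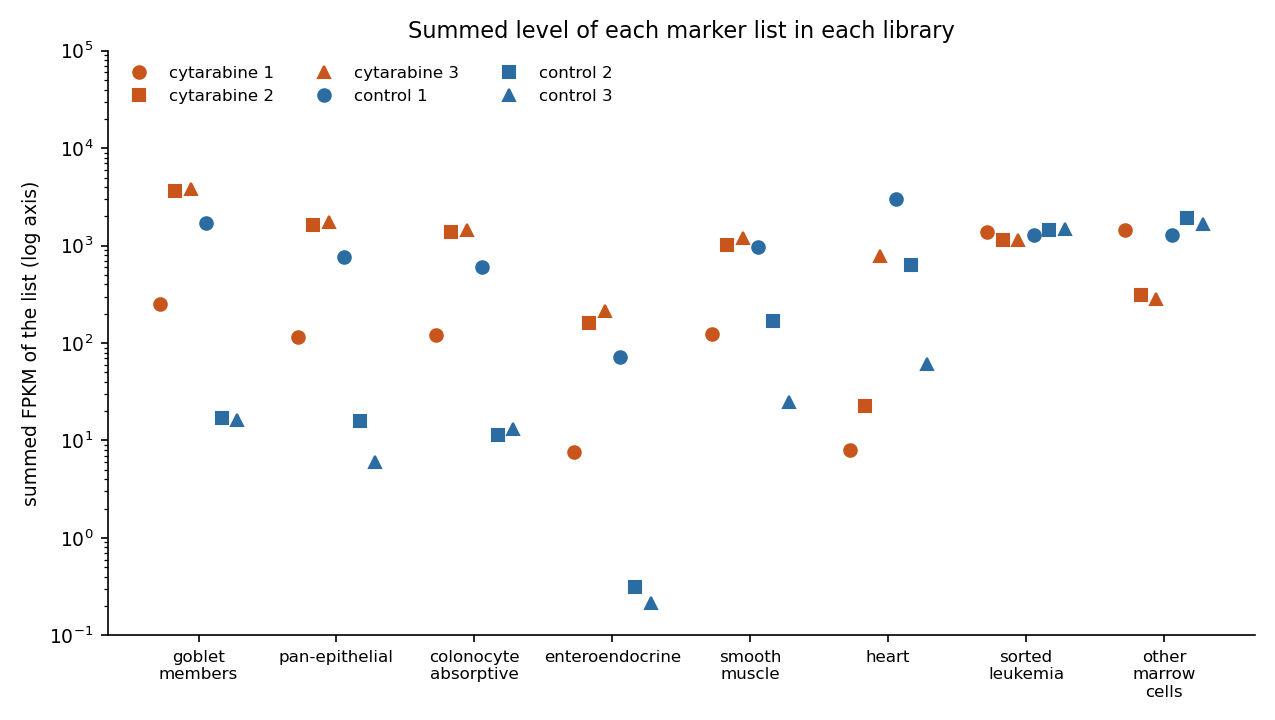
Summed FPKM of 8 marker lists in each library (log axis), orange for cytarabine and blue for control mice. The pan-epithelial, colonocyte and enteroendocrine sums have the high, intermediate and low libraries of the goblet sum, and the heart sum is highest in control 1 at 3026 FPKM. The sum of the sorted leukemia cells runs over 1.30-fold, from 1132 FPKM in cytarabine 2 to 1467 FPKM in control 3.

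The study compared cytarabine with control mice, and the goblet genes were set against that design. On the log2(FPKM + 1) scale, Zg16 averaged 9.72 ± 2.26 (SD, n = 3) in the treated mice against 5.61 ± 3.83 (SD, n = 3) in the control mice, and the difference was 4.11 with a standard error of 2.12 in limma. Tff3 differed by 4.61 (standard error 2.07), Clca3 by 4.11 (2.00), Spink4 by 3.65 (1.87), Agr2 by 3.13 (1.76) and Fcgbp by 2.24 (1.37), all upward with cytarabine. Over the 8 genes the median difference was 3.39, beside -0.0015 over all 11703 genes tested. The groups overlapped for each of the 8 genes, since control 1 lay above cytarabine 1 for all of them, and for Retnlb the other 5 libraries were at 0. Among all tested genes, groups that did not overlap were found for 23.8%. Single libraries carried much of the size of the difference. Without control 1 the difference of Zg16 was 6.32 and the median 5.17, and without control 3 they were 3.00 and 2.41. Agr2, Spink4 and Clca3 differed by 4.86, 5.47 and 6.16 without control 1, and Fcgbp by 3.45 without cytarabine 1. No p-value is attached to these 8 genes, as they were chosen with their levels known.

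**Figure D4:**
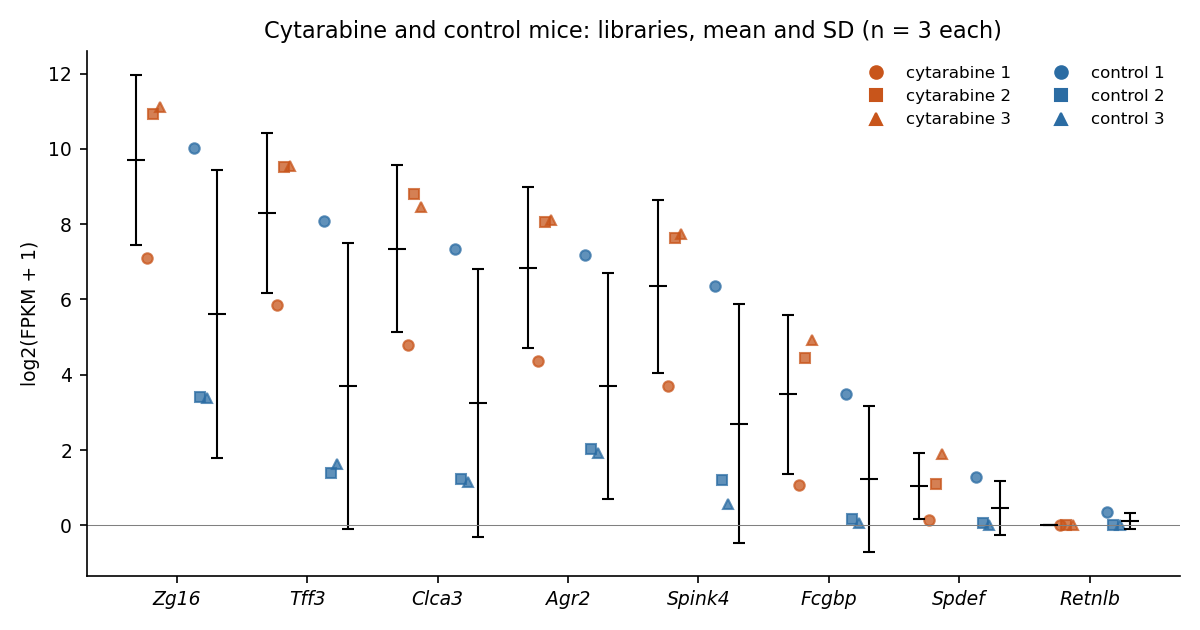
Level of the 8 goblet cell genes as log2(FPKM + 1) in cytarabine (orange) and control (blue) mice, with black bars for the mean and SD of 3 libraries. Control 1 stands among the cytarabine libraries for 7 of the genes and above them for Retnlb, and for Zg16 the means of 9.72 and 5.61 have SDs of 2.26 and 3.83.

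The 31 other goblet genes that averaged 1 FPKM or more entered the same limma fit across all 11703 genes. Their lists were also chosen with earlier results of these data known, and some passed the filter only through high libraries. The p-values and counts for the 31 are therefore a description and no independent test. None had an adjusted p under 0.05, nor did any gene among all those tested, of which 2038 (17.4%) had an unadjusted p under 0.05. At an unadjusted p under 0.05, 3 of the 31 were higher with cytarabine (9.68%, beside 7.6% of all tested genes) and 1 was lower (beside 9.81%). The higher ones, of which Galnt3 and Gcnt1 were named after their values were seen, were all enzymes of mucin-type sugar chains that other cells use as well. C1galt1 was at 33.9, 35.2 and 40.4 FPKM in cytarabine libraries 1 to 3 and at 28.1, 28.2 and 31.6 FPKM in control libraries 1 to 3, with a log2 difference of 0.31 (standard error 0.09) and an adjusted p of 0.204 in limma. For Gcnt1 the log2 difference was 0.57 (standard error 0.19) and the adjusted p 0.23, and for Galnt3 they were 0.32 (standard error 0.11) and 0.237. The lower gene was Gfi1, a transcriptional repressor shared by secretory gut cells and blood cells. Its level was 13.5, 10.2 and 9.80 FPKM in cytarabine libraries 1 to 3 and 15.1, 17.3 and 16.6 FPKM in control libraries 1 to 3, with a log2 difference of -0.52 (standard error 0.13) and an adjusted p of 0.178 in limma, the smallest of the 31. For these 4 genes and no others of the 31 the groups did not overlap, 3 being higher with cytarabine and 1 lower. Among all tested genes 10.9% did not overlap and were higher, and 12.9% did not overlap and were lower. The missing overlap therefore does not set these 4 genes apart. All 4 were far from the goblet profile, with SDs of the difference between 3.53 and 4.03. For Zg16, cytarabine 1 was the lowest treated library and control 1 the highest control library. Leaving out either one widens a difference of that pattern by construction. Without cytarabine 1, 21 of 32 such genes were higher at an unadjusted p under 0.05 in limma (65.6%, beside 17.5% of all genes tested in that fit), and without control 1, 9 of 31 of the other goblet genes were (29%, beside 8.74%). The count was 0 of 32 without control 2 (beside 5.05%) and 1 of 26 without cytarabine 3 (3.85%, beside 5.51%).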

How the data were processed

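RNA of GFP+ CD49b+ C1498 cells from 3 cytarabine-treated and 3 control mice was sequenced, 1 library per mouse. Per the labels and the paper, the authors mapped single-end reads to mm10 with TopHat2 2.0.13, Bowtie2 2.2.3 and SAMtools 0.1.19 and deposited FPKM values from Cufflinks 2.2.1. The annotation and options of Cufflinks are not given in the sources used here. Length and library size were thus already divided out, and no counts were used.

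From these, log2(FPKM + 1) was tested in limma 3.58.1 (R 4.3.3) for the 11703 genes averaging 1 FPKM or more, with an intensity trend in eBayes, two-sided p-values and Benjamini-Hochberg adjustment over all of them. P-values measure only the spread between these mice. On this scale the change of low genes is understated. Library totals were inferred from low FPKM steps, assuming fragments of 200 bases and GENCODE lengths, and read numbers are therefore approximate and cover counting error only. The nearest whole number of reads lay within 0.15 for 75.7 to 82% of the values used.

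The 9 genes and all lists were chosen with earlier results of these data known. Named genes are the members, the 4 genes with the highest mean in each list, markers listed at 0 throughout, and the 10 genes nearest to the goblet profile. Atoh1, Fut2, B4galnt2, Ern2, Galnt3, Gcnt1, Olfm4 and Lgr5 fall outside this rule and were named after their values were seen. One item that the rule would name is not reported here. Positions and promoters are from RefSeq (GRCm38.p6), where all 8 listed members matched, Clca3 by its older symbol, and 3 had a promoter. On simulated data with 200 genes changed by 3 on the log2 scale among 11481, 96.5% were recovered with 13 false calls. That rate cannot be carried over to the goblet genes, because their standard errors in limma were large beside such a change. Among those that entered the fit, these ran from 1.37 (Fcgbp) to 2.12 (Zg16). Alternatives were another pseudocount, filters, scalings, eBayes without trend, the replicate block and leaving out each library. Figures were drawn with matplotlib 3.10.9.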

Additional observations from a re-analysis of the deposited data

How the results depend on the processing

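The differences between cytarabine and control mice kept their upward direction for Zg16, Tff3, Agr2, Fcgbp, Spink4, Clca3 and Spdef under all alternatives run, and the median over the 8 goblet genes lay between 2.41 and 5.17 when single libraries were omitted. With log2(FPKM + 0.1) the difference of Fcgbp was 3.70 instead of 2.24, that of Spdef 1.63 instead of 0.59 and that of Retnlb -0.65 instead of -0.12. No gene passed an adjusted p under 0.05 from limma (2038 had an unadjusted p under 0.05), whereas 1 did with log2(FPKM + 0.1), 2 without the trend in eBayes, and from 0 to 6 when one library was left out, the most without cytarabine 1. Genes with an unadjusted p under 0.05 numbered from 1176 (without control 3) to 4111 (without cytarabine 1), and were 1255 without control 2, 1254 without cytarabine 3 and 1287 without cytarabine 2. With the replicate number as a block there were 994. Same-numbered libraries are different mice, and their deviations from the group means correlated at -0.709, -0.247 and -0.594, so these numbers gave no sign of a pairing. They follow the source labels. The library titles carry other numbers, and a pairing by those was not checked. Of the other goblet genes, 5 of 42 were higher without a filter on low FPKM (11.9%, beside 6.31% of all genes tested), and from 0 of 32 without control 2 (beside 5.05%) to 21 of 32 without cytarabine 1 (65.6%, beside 17.5%) when one library was left out. The cause was not tested. Depth limits Spink4, Spdef and Retnlb in control 2 and 3, where at most about 3.18 reads supported a value.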
